A study of Mus musculus with 4 samples.

Results

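The 10 mitochondrially encoded respiratory chain genes mt-Nd1, mt-Nd2, mt-Nd3, mt-Nd4, mt-Nd5, mt-Co1, mt-Co2, mt-Co3, mt-Atp6 and mt-Cytb were followed through 4 droplet single-cell RNA libraries of mouse pancreatic islets. They were chosen by symbol, and all 10 were found among the 32285 genes of the files. The mice were male, on a C57BL6/N background, and either wild-type for Pax4 (WT) or homozygous for a knock-in allele that substitutes 1 amino acid of the endogenous Pax4 protein (HH), a transcription factor needed for beta cell development. Mice were 12 weeks old on a standard chow diet (SCD), or 16 weeks old with a high-fat diet (HFD) for the last 4 weeks, which gave the groups WT SCD, HH SCD, WT HFD and HH HFD. Each group had 1 library made from the pooled islets of 2 to 3 mice, so no test between groups was possible, and a difference between groups cannot be told apart from a difference between libraries. Between SCD and HFD, diet and age cannot be told apart either. All intervals are exact at the 95% level (Poisson for sums and their ratios, Clopper-Pearson for shares) and cover counting error only. A unique molecular identifier (UMI) stands for 1 captured RNA molecule.

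Mitochondrial DNA encodes 13 protein subunits of the respiratory chain, and all other subunits come from nuclear genes. The mitochondrial transcripts are cut out of long precursors of both DNA strands, mostly receive short poly(A) tails, and are translated inside the organelle. Complex I (NADH dehydrogenase, the Nd genes), complex III (cytochrome b, Cytb) and complex IV (cytochrome c oxidase, the Co genes) pump protons, and complex V (ATP synthase, Atp6) uses the gradient to make ATP. In beta cells, ATP made from glucose closes the ATP-sensitive potassium channel and so starts insulin secretion. In droplet data a high share of mitochondrial UMIs is commonly used as a sign of a damaged cell, and the study kept cells under 10%. Since that limit acts on the level of the genes described here, the shares and summed ratios of beta-like and alpha-like cells are given with the limit and without it, and other values with the limit unless stated.

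The library chemistry captures poly(A) tails, so the 3′ ends of the transcripts were what was counted. The ends of 7 genes are shown from the GENCODE M21 transcripts of GRCm38, because they show where the tail is joined and which genes share a transcript. The last 30 bases are printed 5′ to 3′ in the sense of the gene, with the encoded part of the stop codon in capitals. All 7 lie on the plus strand of the mitochondrial chromosome, as do all 10 members, each of which is a single protein-coding exon: mt-Nd1 at chrM:2751-3707, mt-Nd2 at chrM:3914-4951, mt-Co1 at chrM:5328-6872, mt-Co2 at chrM:7013-7696, mt-Atp6 at chrM:7927-8607, mt-Co3 at chrM:8607-9390, mt-Nd3 at chrM:9459-9806, mt-Nd4 at chrM:10167-11544, mt-Nd5 at chrM:11742-13565 and mt-Cytb at chrM:14145-15288.
mt-Nd3 (chrM:9777-9806): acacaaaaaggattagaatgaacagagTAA
mt-Nd5 (chrM:13536-13565): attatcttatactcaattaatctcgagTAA
mt-Nd4 (chrM:11515-11544): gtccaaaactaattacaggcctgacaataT
mt-Co3 (chrM:9361-9390): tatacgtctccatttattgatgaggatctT
mt-Cytb (chrM:15259-15288): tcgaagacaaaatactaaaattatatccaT
mt-Atp6 (chrM:8578-8607): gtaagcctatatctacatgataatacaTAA
mt-Atp8 (chrM:7940-7969): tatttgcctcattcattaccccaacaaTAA
The genes mt-Nd4, mt-Co3 and mt-Cytb end in the annotation after 1 base of their stop codon, and the poly(A) tail supplies the rest. The other 7 members have a complete stop codon. The end of mt-Atp8 lies within mt-Atp6, with 43 shared bases, since both are read from 1 transcript, and mt-Nd4l shares 7 bases with mt-Nd4 in the same way. Reads from the 3′ end of such a transcript fall in the downstream gene. The last 14 bases of mt-Nd5 overlap mt-Nd6 on the other strand. In WT SCD, mt-Atp8 had 2703 UMIs against 1143915 for mt-Atp6, and mt-Nd4l had 11020 against 465556 for mt-Nd4. These 2 genes and mt-Nd6, the single protein gene of the other strand, are not members and were used only beside them. Nuclear transcripts of 95% identity or more over at least 80 bases existed for 8 of the 10 members, but none of those nuclear genes was in the files. Reads from them would have been lost or counted to the members, and their part in the values was not tested.

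Over all 22218 barcodes, the 10 genes held 6628723 UMIs for WT SCD, 5283248 for HH SCD, 5939542 for WT HFD and 5485103 for HH HFD. This was 7.58%, 6.63%, 8.73% and 5.23% of all UMIs, so WT HFD was the highest library and HH HFD the lowest. The members made up 99.8% of the UMIs of all mitochondrially encoded genes in each library. The libraries held 5123, 4665, 5307 and 7123 barcodes, and between 6 and 11 barcodes were shared by a pair of libraries. Levels were next compared between genes per kilobase of gene. In that unit mt-Co3 was highest in every library, at 14998 to 25848 CPM per kb, followed by mt-Atp6, mt-Co2, mt-Cytb and mt-Co1. CPM are the UMIs of a gene per 1000000 UMIs. Below these, mt-Nd1 and mt-Nd2 changed places between the SCD and the HFD libraries. The lowest members per kb were mt-Nd4, then mt-Nd3 at 595 to 1709 and mt-Nd5 at 156 to 269 CPM per kb. The libraries are 3′ tags, for which a longer gene need not give more UMIs, so this order is a description of the files.

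Barcodes fell into a main group at low mitochondrial shares and a long tail. The median share of mitochondrial UMIs was 5.93% for WT SCD, 5.44% for HH SCD, 5.94% for WT HFD and 4.35% for HH HFD. The 75th percentile stood much further apart, at 11.5%, 8.85%, 38.0% and 7.79%, so that WT HFD stands apart from the other libraries in its tail. At or over the limit were 28.6% of barcodes in WT SCD (interval 27.3 to 29.8), 21.4% for HH SCD (20.2 to 22.6), 36.8% for WT HFD (35.5 to 38.1) and 21.4% for HH HFD (20.5 to 22.4). These barcodes carried 39.3%, 29.5%, 54.8% and 28.4% of all UMIs of the 10 genes. Most of them also missed the lower bounds of 3000 UMIs or 2000 genes, namely 71.9%, 74.8%, 89.1% and 90.6%.

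**Figure D1:**
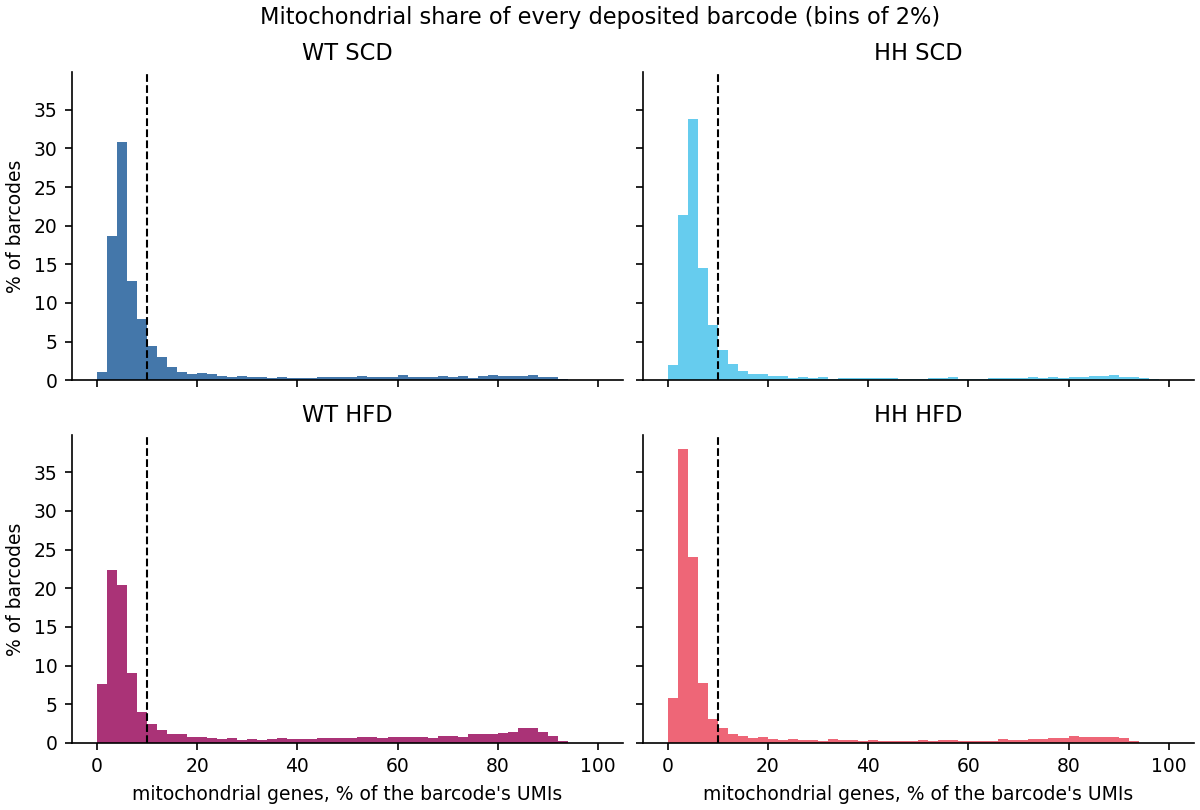
Distribution of all deposited barcodes over the share of mitochondrial UMIs (x axis, percent, bins of 2%), as percent of the library's barcodes (y axis), for the 4 libraries; the dashed line is the 10% limit. WT HFD has 1141 barcodes (21.5%) with a share of 50% or more, against 541, 367 and 767 in WT SCD, HH SCD and HH HFD.

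The barcodes with at least 50% mitochondrial UMIs held few other molecules. Their median number of UMIs outside mitochondrial genes was 630 for WT SCD, 416 for HH SCD, 444 for WT HFD and 261 for HH HFD, while barcodes under 5% had 20268, 19761, 11981 and 17784. Their number of member UMIs was not low, with medians of 2054, 1853, 1945 and 1147 against 823, 777, 371 and 596 under 5%. Of their non-mitochondrial UMIs, Ins1 and Ins2 gave 24.2%, 22.6%, 25.9% and 26.5%. Malat1, a nuclear noncoding RNA, gave 9.26%, 9.78%, 8.70% and 9.11%, compared with 0.999%, 0.989%, 1.10% and 0.922% under 5%.

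The balance between the members also differed along this axis. The bins pool barcodes of all cell types. From under 5% to 50% or more, the glucagon gene Gcg went from 1.73% to 0.55% of non-mitochondrial UMIs in WT SCD. In HH SCD it went from 1.93% to 0.87%, in WT HFD from 3.67% to 0.77% and in HH HFD from 2.19% to 1.25%. The part of the mix of cell types in the balance was not tested. By the share of member UMIs that would have to move from one gene to another to make 2 balances alike, barcodes under 5% and those at 50% or more were 4.47% and 4.65% apart in the SCD libraries of WT and HH, and 3.80% and 4.10% apart in their HFD libraries. From the barcodes under 5% to those at 50% or more, mt-Co1 went from 15.4% to 13.0% of the summed member UMIs for WT SCD, from 15.2% to 13.0% for HH SCD, from 14.8% to 12.4% for WT HFD and from 14.5% to 12.4% for HH HFD. Over the same bins mt-Co3 went from 21.6% to 22.2%, 21.5% to 22.3%, 22.7% to 24.0% and 22.0% to 23.7%. The share of mt-Cytb went from 13.0% to 11.1%, 13.2% to 11.0%, 14.9% to 13.7% and 15.3% to 13.8%, and that of mt-Atp6 from 16.7% to 18.2%, 16.4% to 17.8%, 14.8% to 15.7% and 14.4% to 15.0%. In all 4 libraries the mt-Co1 and mt-Cytb shares were thus lower, and the mt-Co3 and mt-Atp6 shares higher, in the mitochondria-rich barcodes. So were those of mt-Co2, at 14.4% to 15.6% in WT SCD, and mt-Nd2, at 5.59% to 6.57% in WT SCD. The share of mt-Nd3 was between 0.71% and 0.84% in every bin of the SCD libraries and between 0.35% and 0.44% in every bin of the HFD libraries.

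Cells were next assigned to classes from 3000 to 50000 UMIs and 2000 to 5000 genes, by clustering that left out every mitochondrially encoded gene. This kept 3544, 3372, 2232 and 4522 cells without the limit and 3136, 3121, 2024 and 4379 with it, in the order WT SCD, HH SCD, WT HFD, HH HFD. Only 38.1% of the barcodes of WT HFD were kept with the limit, against 61.2%, 66.9% and 61.5% in the other libraries. All 22 clusters could be named from fixed markers, and the beta, alpha, delta, PP and endothelial classes, called X-like here, had at least 50 cells in each library. All 9 beta markers were detected in beta-like cells of every library, but the class was named from them, so this is no separate check of the name. Hormone genes were also found outside the endocrine classes, where they gave 1.76% of UMIs in endothelial-like cells of WT HFD and 21.2% in those of HH HFD. Whether these came from free RNA or from doublets was not tested.

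Of the 5 classes, beta-like cells lost the largest share to the limit in each library, although in HH HFD the interval overlapped those of the other classes. It removed 15.6% of beta-like cells in WT SCD (interval 14.2 to 17.1), 10.4% for HH SCD (9.15 to 11.7), 13.7% for WT HFD (11.9 to 15.7) and 3.52% for HH HFD (2.90 to 4.24). Of alpha-like cells it removed 2.61%, 1.45%, 2.75% and 2.42%, and of delta-like ones 0.59%, 0.57%, 1.82% and 2.60%. The beta-like class of HH HFD thus lost fewer cells than that of any other library, while the interval of its alpha-like class (1.26 to 4.19) overlapped those of the other libraries.

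With the limit, the 10 genes gave 5.44% of UMIs in beta-like cells of WT SCD, 5.21% for HH SCD, 4.995% for WT HFD and 4.07% in HH HFD. Without it the shares were 6.23%, 5.70%, 5.76% and 4.23%, in the same order of libraries except that WT HFD passed HH SCD. Single cells varied more than libraries: the 10th and 90th percentiles of beta-like cells in WT SCD were 3.60% and 8.65% with the limit. In alpha-like cells the shares were 5.54%, 5.401%, 4.02% and 4.09% with the limit and 5.84%, 5.51%, 4.31% and 4.30% without. Here the SCD and the HFD libraries stood apart, and WT and HH of a diet lay close together. Delta-like cells had 4.07%, 4.16%, 3.41% and 3.44%, PP-like cells 3.68%, 3.51%, 3.10% and 2.81%, and endothelial-like cells 3.41%, 3.86%, 2.92% and 3.53%, all with the limit. Without it they had 4.16%, 4.22%, 3.56% and 3.77% (delta-like), 3.77%, 3.68%, 3.33% and 2.94% (PP-like) and 4.08%, 4.24%, 3.87% and 3.97% (endothelial-like).

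Which class had the highest share depended on the limit and on the denominator. With the limit, alpha-like cells exceeded beta-like cells in 3 of 4 libraries, by 0.03 on the log2 scale in WT SCD (interval 0.02 to 0.03), 0.05 in HH SCD (0.05 to 0.06) and 0.01 in HH HFD (0.00 to 0.02), and were lower by 0.31 in WT HFD (log2 ratio -0.31, interval -0.32 to -0.31). Without the limit they exceeded beta-like cells in 1 library, HH HFD, at 0.03. With the limit, other settings of the clustering or of the weight of cells gave 2 libraries, as listed below. Hormone genes took 57.2% to 60.7% of the UMIs of beta-like cells without the limit and 33.3% to 37.9% of those of alpha-like cells. When hormone genes were left out of the denominator, beta-like cells had the highest share in all 4 libraries, with 13.0%, 13.0%, 12.3% and 10.4% with the limit and 14.6%, 14.0%, 13.9% and 10.7% without. Alpha-like cells then had 8.32%, 8.11%, 6.499% and 6.57% with the limit, followed by PP-like, delta-like and endothelial-like cells in every library. Per cell, the median number of member UMIs with the limit was 1401, 1346, 1471 and 980 in beta-like cells and 667, 592, 620 and 419 in alpha-like cells, at median total UMIs of 26438, 26184.5, 29781.5 and 24390 against 12216, 11007.5, 16013 and 9969.5.

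**Figure D2:**
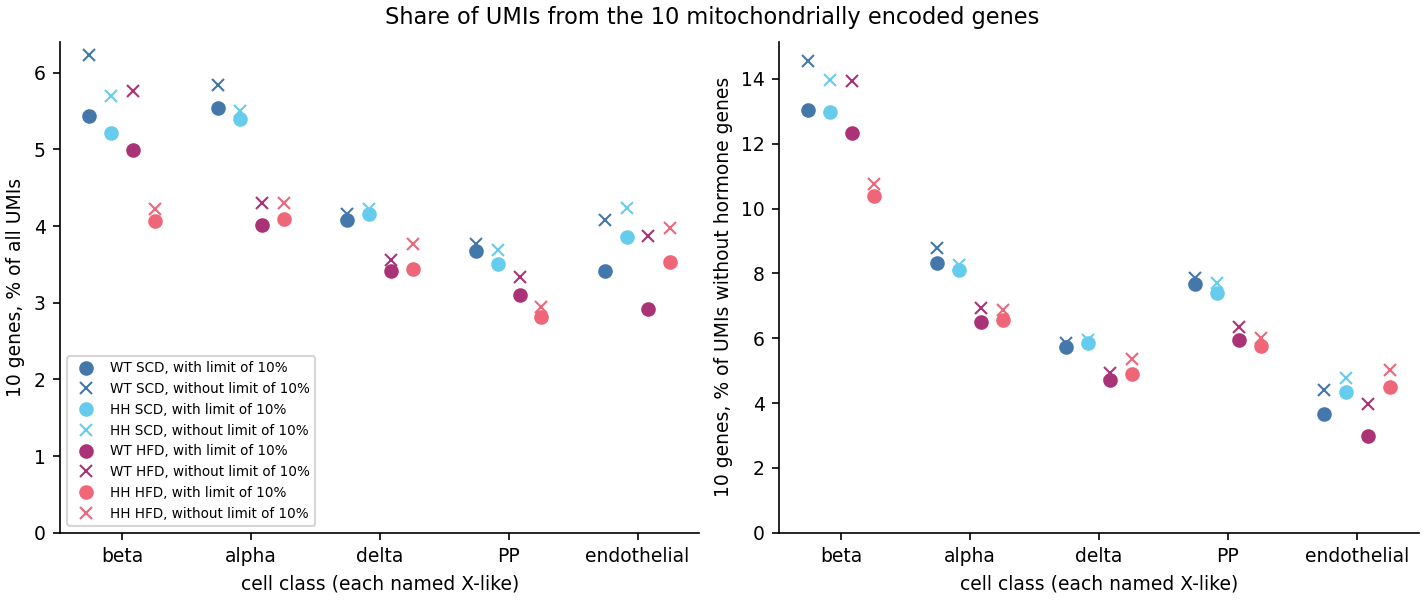
Share of UMIs from the 10 genes (y axis, percent) in 5 cell classes (x axis) and 4 libraries (colours), with the 10% limit (circles) and without it (crosses), over all UMIs (left) and over UMIs without Ins1, Ins2, Iapp, Gcg, Sst, Ppy and Pyy (right). Over all UMIs with the limit the log2 ratio of alpha-like over beta-like cells is 0.03, 0.05, -0.31 and 0.01 in the 4 libraries; without hormone genes beta-like cells are highest in all 4.

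The balance between the members differed more between classes, and between SCD and HFD, than between WT and HH. As a measure, the summed UMIs that would have to move from one gene to another to make 2 balances alike were taken as a percent of all member UMIs. Between WT and HH of 1 diet this was 0.47% to 3.11% over 10 pairs of the same class (median 1.13%), and between SCD and HFD 4.07% to 6.44% over 20 pairs (median 4.57%). Between different classes of 1 library it was 3.08% to 9.44% over 40 pairs (median 5.49%). Without the limit the largest value between different libraries of a class was 5.52%, and between classes of a library 8.46%.

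Between classes, single genes of each complex differed. The share of mt-Atp6 was 16.8%, 16.7%, 14.9% and 14.6% of the member sum in beta-like cells, in the order WT SCD, HH SCD, WT HFD, HH HFD, and 21.4%, 20.8%, 20.2% and 18.4% in endothelial-like cells. The endothelial-like class was the higher of these in every library. The share of mt-Nd1, a core membrane subunit of complex I, was 6.72%, 6.94%, 8.16% and 7.96% in alpha-like cells and 4.29%, 4.51%, 5.23% and 5.59% in delta-like cells. For mt-Co3, a core subunit of complex IV, alpha-like cells had 23.2%, 23.2%, 24.5% and 24.4%, while endothelial-like cells had 17.8%, 18.4%, 19.3% and 19.6%. The share of mt-Cytb, a catalytic subunit of complex III, was 12.7%, 12.8%, 15.0% and 15.1% in beta-like cells and 11.1%, 10.9%, 13.3% and 12.5% in alpha-like cells. In both classes the HFD libraries were higher than the SCD libraries.

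**Figure D3:**
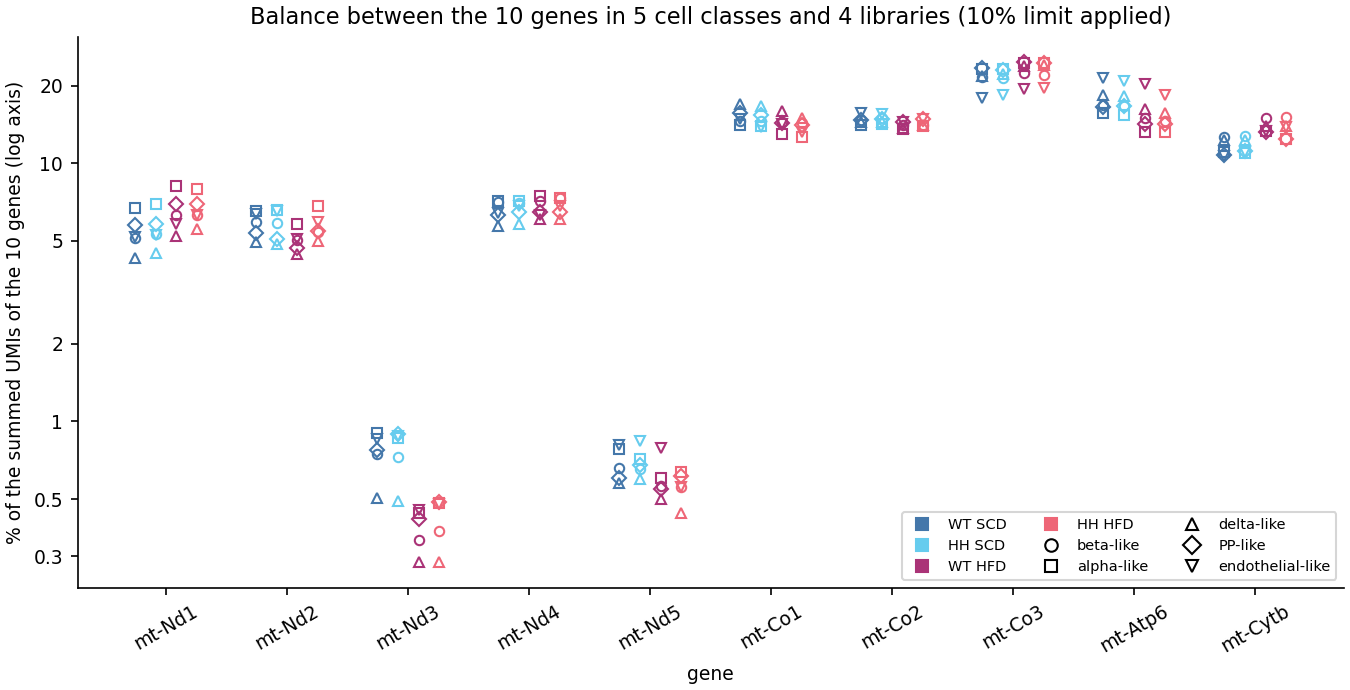
Share of the summed UMIs of the 10 genes (y axis, percent, log axis) taken by each gene (x axis) in 5 cell classes (symbols) and 4 libraries (colours), with the 10% limit. Over all points mt-Co2 keeps between 13.5% and 15.6%, while mt-Nd3 lies between 0.49% and 0.91% in the SCD libraries and between 0.28% and 0.49% in the HFD libraries.

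HH was compared with WT within each diet, in beta-like cells first, which asks whether the Pax4 allele goes with a change in the mitochondrial transcripts on chow or on a high-fat diet. On SCD all 10 members were slightly lower in HH over all UMIs. The summed level was 54390 CPM in WT SCD and 52134 CPM in HH SCD, a log2 ratio of HH over WT of -0.06 (interval -0.06 to -0.06) with the limit and -0.13 (-0.13 to -0.13) without it. With hormone genes left out of the denominator the summed ratio was -0.0072 with the limit, so the direction of a single member can depend on the denominator. Over all UMIs, single members lay between -0.10 for mt-Nd3 and -0.02 for mt-Nd1, beside a median of -0.04 over all 1402 genes that averaged at least 50 CPM. A gene was counted as lower when its log2 ratio was -0.25 or below and its Poisson intervals did not overlap. By this rule 0 of 10 members were lower with the limit, against 2.43% of all genes, and 0 of 10 without it, against 2.96%.

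On HFD the members were lower in HH by more. The summed level in beta-like cells was 49953 CPM in WT HFD and 40659 CPM in HH HFD, a log2 ratio of -0.30 (interval -0.30 to -0.29). Without the limit it was -0.45 (-0.45 to -0.44). Of the members, 8 of 10 were counted as lower, where 15.4% of all 1309 genes were, and without the limit 10 of 10, where 18.2% were. The count rested on the processing: 0 of 10 were lower at a limit of 5%, where the summed ratio was -0.10 and 16.0% of all genes were lower, and 0 at Leiden resolution 2, where it was -0.19 and 6.21% were. It was 3 with looser bounds on UMIs and genes, where 14.9% were, and 4 without hormone genes, where 12.5% were. A limit of 5%, like that of 10%, acts on the level that is compared. It kept 602 beta-like cells of WT HFD and 2137 of HH HFD, against 1146 and 2930 at 10%. The median over the members was -0.30, beside -0.02 over all genes. As no library is repeated, this is a difference between the WT HFD and HH HFD libraries, and WT HFD is the library with the long tail of mitochondria-rich barcodes.

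The genes of complexes V and IV are given first. The level of mt-Atp6, the proton channel subunit of ATP synthase, was 9133 CPM for WT SCD, 8699 for HH SCD, 7466 for WT HFD and 5937 for HH HFD, so HH HFD lay below the other 3 libraries. Its log2 ratio on HFD was -0.33 (-0.34 to -0.32). For mt-Co3 the levels were 11752, 11197, 11130 and 8945 CPM, and for mt-Co1, the catalytic subunit of complex IV, 7952, 7589, 7194 and 5812 CPM. Their log2 ratios on HFD were -0.32 and -0.31. The remaining mitochondrially encoded subunit of that complex, mt-Co2, had 7997, 7776, 7010 and 5699 CPM, with a ratio of -0.30 on HFD. In each of these genes HH HFD was the lowest library.

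The genes of complexes III and I followed. The level of mt-Cytb was 6903, 6666, 7469 and 6131 CPM and that of mt-Nd1 2801, 2770, 3148 and 2570 CPM, so that for both genes WT HFD was the highest library and HH HFD the lowest. Their ratios on HFD were -0.28 (-0.29 to -0.28) and -0.29 (-0.30 to -0.28). For mt-Nd4 and mt-Nd5, proton-pumping subunits of complex I, the ratios were -0.26 and -0.31, from 3866, 3658, 3563 and 2980 CPM and from 360, 342, 280 and 227 CPM. The members that missed the threshold with the limit were mt-Nd2, with 3218, 3057, 2519 and 2207 CPM and a ratio of -0.19 (-0.20 to -0.18), and mt-Nd3, with 408, 380, 174 and 153 CPM and a ratio of -0.19 (-0.24 to -0.14). In these 2 genes, as in mt-Nd4, mt-Nd5 and the genes of complexes V and IV, both HFD libraries lay below both SCD libraries. Just inside the threshold was mt-Nd4. The remaining mitochondrial protein genes were rare in beta-like cells of WT HFD and HH HFD, with 54.0 and 46.8 CPM for mt-Nd4l, 9.20 and 7.43 for mt-Nd6 and 14.2 and 10.2 for mt-Atp8.

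**Figure D4:**
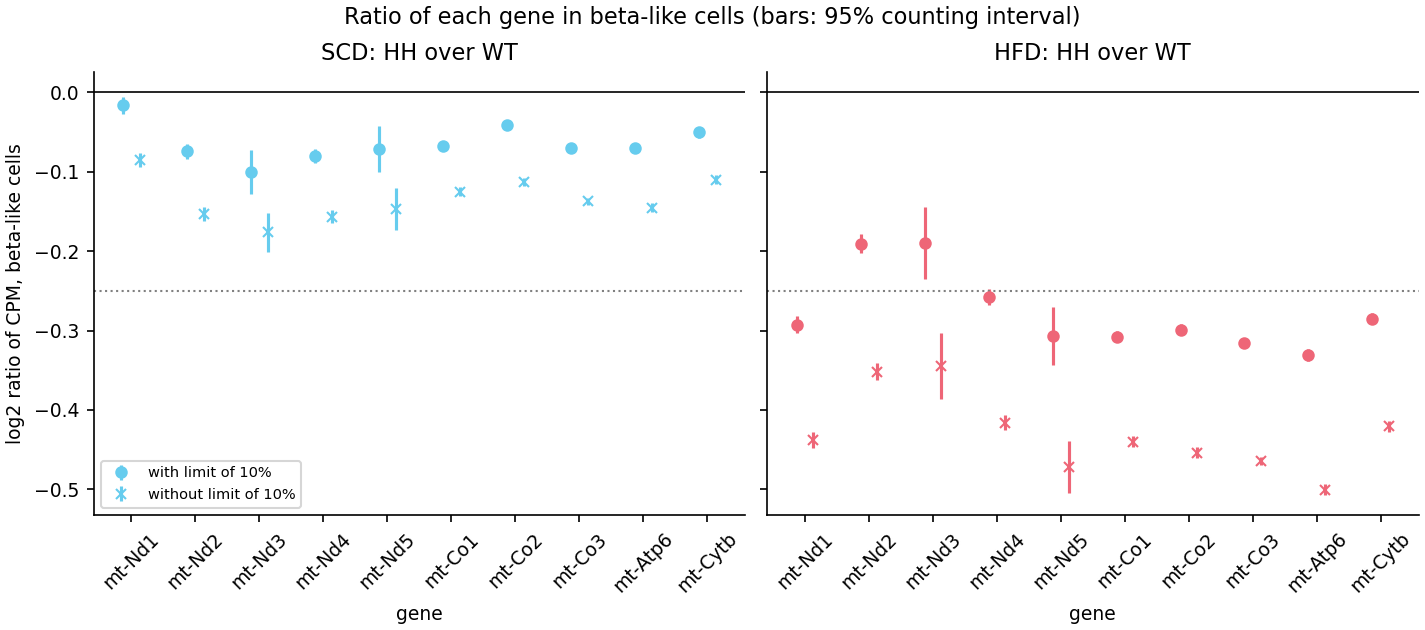
Log2 ratio of CPM, HH over WT, of each of the 10 genes in beta-like cells on SCD (left) and HFD (right), with the 10% limit (circles) and without it (crosses); bars are 95% counting intervals and the dotted line is at -0.25. All points are below 0; on HFD 8 genes with the limit and 10 without it lie past the line.

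The clusters that made up the beta-like class differed between the libraries. On HFD, cluster 14 held 1256 cells of HH HFD, or 42.9% of its beta-like cells, and under 50 of WT HFD, whereas cluster 4 held 47.9% of WT HFD and 12.7% of HH HFD. The member share was 3.63% in cluster 14. Within the 3 clusters with at least 50 cells of both libraries, the share in WT HFD was 4.55% in cluster 2, 4.92% in cluster 4 and 5.32% in cluster 5, against 4.06%, 4.17% and 4.93% for HH HFD. The log2 ratios there were -0.16 (-0.17 to -0.15), -0.24 (-0.24 to -0.23) and -0.11 (-0.11 to -0.10), all smaller in size than the ratio of the whole class. Within the 4 such clusters of SCD the ratios were 0.01, -0.08, 0.01 and 0.04 in clusters 0, 1, 2 and 3, so 3 of them were above 0 while the class as a whole was at -0.06. Without the limit the 3 HFD ratios were -0.23, -0.35 and -0.13, and the 4 SCD ratios -0.04, -0.12, -0.02 and 0.02.

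Member share and depth varied together across cells, and depth differed between the libraries. Across beta-like cells of a library, the member share and the number of UMIs outside mitochondrial genes had a Spearman correlation of -0.50 to -0.53 with the limit, over 1146 to 2930 cells that share a library. These UMIs are most of the denominator of the share, so part of this correlation is built in. The number of member UMIs had a correlation of 0.22 to 0.35 with the same count under the limit and of -0.022 to 0.27 without it. In beta-like cells of HFD the median of UMIs outside mitochondrial genes was 28331.5 in WT and 23375 in HH. Among cells with 20000 to 30000 such UMIs the member share was 5.52% in WT HFD and 3.90% in HH HFD, with a log2 ratio of -0.50. From 10000 to 20000 the ratio was -0.36 and from 30000 to 40000 it was -0.38. Without the limit the ratios of these bins, from the shallowest to the deepest, were -0.67, -0.59 and -0.40. On SCD the 3 ratios were -0.06, -0.07 and -0.08 with the limit and -0.16, -0.12 and -0.07 without it. The part of depth in the member ratio was not tested.

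Other measures also differed between the beta-like cells of the WT HFD and HH HFD libraries. The heat shock gene Hspa1a was at 192 CPM in WT HFD and 59.7 in HH HFD, and the early response genes Fos and Jun at 678 and 487 and at 652 and 397 CPM. On SCD Hspa1a was at 219 CPM in WT and 176 in HH, the same direction, while Fos was at 785 and 1036 and Jun at 646 and 736, the other direction. The early response gene Egr1 was lower in HH on both diets, at 460 and 438 CPM on SCD and at 321 and 206 on HFD. Malat1 was nearly level, at 7915 and 7764 CPM. All 8 alpha markers were detected in beta-like cells of both libraries, with a summed level of 1756 CPM in WT HFD and 5000 CPM in HH HFD (1971 and 2354 on SCD), and all 6 delta markers summed to 85.8 and 878 CPM (166 and 220 on SCD). The PP markers summed to 819 and 2525 CPM (1018 and 1726 on SCD). Endothelial markers summed to 5.58 and 7.29 CPM. The alpha list includes Gc and Ttr, which the study reported as raised in a beta cell cluster that was more frequent in HH HFD. The sums of endocrine markers cannot tell RNA from other endocrine cells apart from expression in the beta-like cells themselves. The part of handling, of RNA from other endocrine cells and of cell loss in the member ratio was not tested.

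The nuclear-encoded subunits were set beside the members. Of the lists for complexes I, III, IV and V, 30, 8, 10 and 15 genes reached 50 CPM in beta-like cells on HFD. None of them was counted as lower in HH, where 15.4% of all genes were, and 4, 3, 3 and 2 were higher by the same rule, where 13.5% of all genes were. Their median log2 ratios were 0.12, 0.22, 0.19 and 0.14, where the members had -0.30. In complex I the ratios ran from -0.11 for Ndufs7 to 0.58 for Ndufa1, in complex III from -0.09 for Uqcrc1 to 0.35 for Uqcrq, in complex IV from 0.04 for Cox6a1 to 0.35 for Cox7c, and in complex V from 0.00 for Atp5b to 0.34 for Atp5g1. All are subunits of the complex under which they are named. On SCD the medians were 0.04, 0.06, 0.02 and 0.05, with Atp5g1 (0.25) the single gene past the threshold, where 1.07% of all genes were higher, and none lower. In SCD the ratios ran from -0.09 for Ndufa6 to 0.18 for Ndufc2, from 0.00 for Uqcrfs1 to 0.12 for Uqcrq, from -0.04 for Cox6c to 0.10 for Cox5b, and from -0.04 for Atp5l to 0.25 for Atp5g1.

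Per UMI of the 71 nuclear-encoded subunits, beta-like cells with the limit held 6.31 member UMIs for WT SCD, 5.84 for HH SCD, 6.11 for WT HFD and 4.48 for HH HFD. Without the limit the values were 7.31, 6.43, 7.15 and 4.66. In alpha-like cells they were 4.35, 4.22, 3.53 and 3.36, in PP-like cells 3.52, 3.30, 3.13 and 2.80, and in delta-like cells 2.82, 2.93, 2.60 and 2.47, all with the limit. Endothelial-like cells had 2.81, 3.13, 2.36 and 2.94. Beta-like cells had the largest number in every library. HH HFD was the lowest library in the 4 endocrine classes, whereas in endothelial-like cells WT HFD was the lowest. Genes that transcribe, stabilise or process mitochondrial RNA were too rare in beta-like cells to follow. None of the 15 listed genes in the files reached 50 CPM there, and in alpha-like cells only Lrpprc, which stabilises mitochondrial mRNA, did, with a ratio of -0.06 (-0.30 to 0.19) on SCD and 0.42 (0.15 to 0.68) on HFD.

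The comparison of HH with WT was repeated in the other classes. In alpha-like cells the summed ratio was -0.04 (-0.04 to -0.03) on SCD and 0.03 (0.02 to 0.04) on HFD with the limit, and -0.08 and -0.0016 without it. On SCD 0 of 10 members were lower, where 1.13% of all genes were, and on HFD 0 of 10, where 2.01% were. In the other direction mt-Nd2 was counted as higher on HFD at 0.26, as 1 of 10 members where 2.89% of all genes were. Without the limit 0 of 10 members were higher on HFD, where 3.03% of all genes were, and the highest ratio was 0.23. Most alpha-like cells of the HFD libraries came from another cluster than the SCD ones, namely cluster 15 against cluster 6. In delta-like cells the summed ratios were 0.03 and 0.01, and in PP-like cells -0.07 and -0.14, with the limit. Without it they were 0.02 and 0.08, and -0.03 and -0.18. In endothelial-like cells they were 0.18 (0.16 to 0.20) on SCD and 0.27 (0.26 to 0.29) on HFD, but 0.05 and 0.04 without the limit. On HFD with the limit 6 of 10 members were counted as higher in endothelial-like cells, where 4.10% of all genes were. Of all genes 41.5% were lower there, and the median over the members was 0.32 beside -0.36 over all genes. Without the limit 0 of 10 were higher, where 4.02% of all genes were, and mt-Nd5 was counted as lower at -0.37, as 1 of 10 where 39.3% were. The typical endothelial-like cell differed less than the sum: with the limit the median share of a cell was 3.26% in WT SCD and 3.40% in HH SCD, and 2.76% in WT HFD and 2.87% in HH HFD. Beside the ratios the hormone share of these cells was 7.004% for WT SCD, 11.2% for HH SCD, 1.76% for WT HFD and 21.2% for HH HFD, and its part in them was not tested. Whether the difference between classes is larger than the spread between libraries of a group was not tested.

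The HFD libraries were compared with the SCD libraries within each genotype. Among the members, the largest difference was in mt-Nd3, a small membrane subunit of complex I. Its level in beta-like cells was 408 CPM in WT SCD and 380 in HH SCD, against 174 in WT HFD and 153 in HH HFD. Alpha-like cells had 501, 467, 177 and 199 CPM, delta-like cells 206, 204, 97.5 and 97.9, PP-like cells 284, 313, 130 and 137, and endothelial-like cells 292, 338, 133 and 169. In all 5 classes both HFD libraries lay below both SCD libraries. The log2 ratios of HFD over SCD ran from -1.50 (alpha-like, WT) to -0.998 (endothelial-like, HH) with the limit. Without it they were -1.24 in WT and -1.40 in HH beta-like cells. The lower share of mt-Nd3 in the member sum was thus seen in WT and HH, and, as given above, in barcodes of every mitochondrial share.

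The other members of low level went the same way with smaller ratios. For mt-Nd5 the ratio was -0.36 in WT and -0.59 in HH beta-like cells and -0.83 and -0.57 in alpha-like cells. The rare genes that are no members were lower too, with -0.85 and -1.06 for mt-Nd4l, -0.70 and -0.99 for mt-Nd6 and -0.67 and -0.99 for mt-Atp8 in WT and HH beta-like cells. At the other end, mt-Nd1 and mt-Cytb were at 0.17 and 0.11 in WT and at -0.11 and -0.12 in HH beta-like cells. In alpha-like cells they were at -0.18 and -0.20 in WT and at -0.20 and -0.21 in HH.

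By the same rule, 4 of 10 members were lower in WT HFD than in WT SCD in beta-like cells (mt-Nd2, mt-Nd3, mt-Nd5 and mt-Atp6), where 18.9% of all genes were. In HH beta-like cells 8 of 10 were, all but mt-Nd1 and mt-Cytb, where 19.8% were. In alpha-like cells the counts were 8 of 10 in WT, where 24.0% were, and 8 of 10 in HH, where 23.7% were, and mt-Nd1 and mt-Cytb were again the exceptions. The summed ratio was -0.12 in WT and -0.36 in HH beta-like cells, -0.46 and -0.40 in alpha-like, -0.26 and -0.27 in delta-like, -0.25 and -0.32 in PP-like cells and -0.22 and -0.13 in endothelial-like cells. Without the limit the same sums were -0.11 and -0.43, -0.44 and -0.36, -0.23 and -0.16, -0.18 and -0.33, and -0.08 and -0.09. The beta-like cells compared came from different clusters, mostly 0, 1 and 3 on SCD and 4, 5 and 14 on HFD. These comparisons use the same libraries as those of HH with WT, and diet, age and library cannot be told apart in them.

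**Figure D5:**
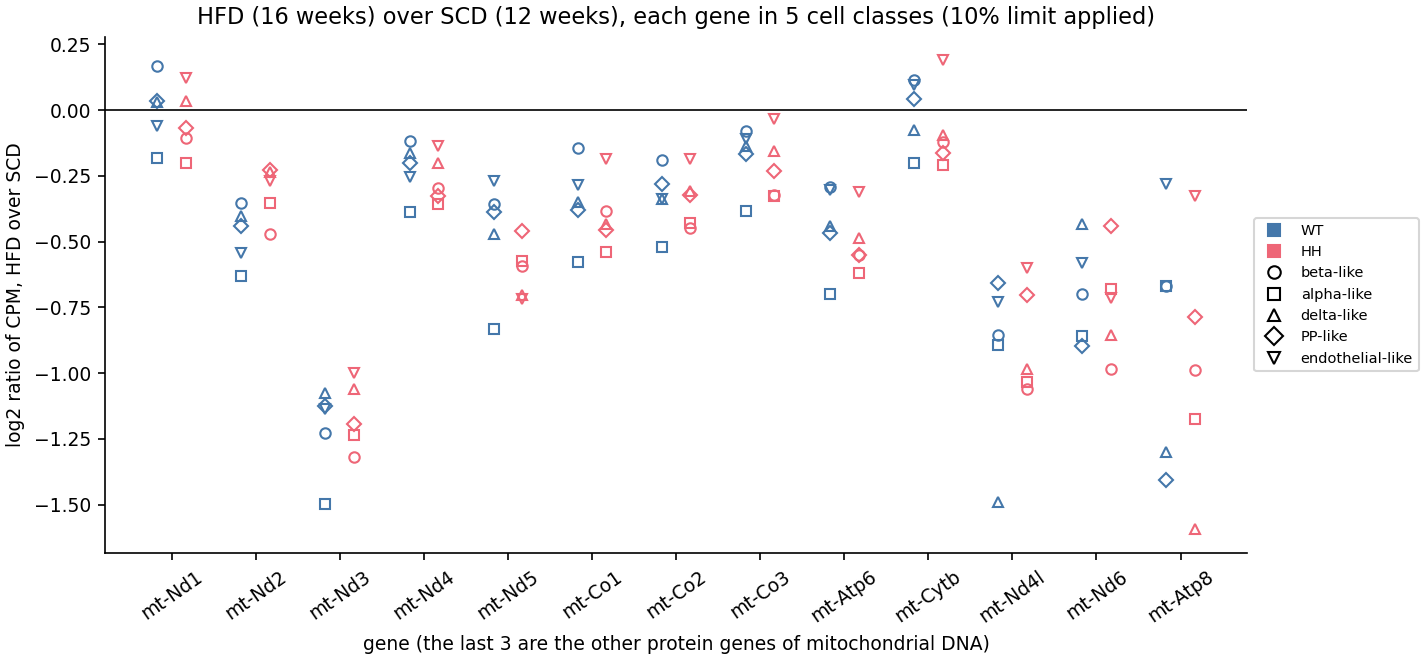
Log2 ratio of CPM, HFD over SCD, of the 10 members and the 3 other protein genes of mitochondrial DNA (x axis) in 5 cell classes (symbols), for WT (blue) and HH (red), with the 10% limit. The mt-Nd3 points lie between -1.50 and -0.998, while those of mt-Co3 lie between -0.38 and -0.03.

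Across the 20 points of 5 classes by 4 libraries, members varied together to different degrees. CPM computed over the UMIs outside mitochondrial genes, on a log2 scale, had a Pearson correlation of 0.95 for mt-Nd2 with mt-Nd4 and of 0.33 for mt-Nd3 with mt-Cytb, the lowest of all pairs. The 5 genes outside mitochondrial DNA with the pattern most like the member sum, of 2413 ranked, were Ppm1b (a protein phosphatase, r = 0.83), Uso1 (a vesicle tethering factor, 0.81), Zfp516 (a zinc finger protein, 0.80), Uqcc2 (an assembly factor of complex III, 0.80) and Rnase4 (a ribonuclease, 0.79). The 20 points share libraries and classes, so these values are a description only.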

How the data were processed

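Single-cell suspensions of islets were run on the 10x Chromium 3′ v3.1 chemistry. The authors aligned reads to GRCm38 (mm10) with Cell Ranger 6.0 and deposited its filtered matrices, which hold raw UMI counts, with no normalisation. The ambient RNA correction and doublet removal that the authors applied later are not in these counts. Libraries totalled 87472976 (WT SCD), 79712168 (HH SCD), 68011082 (WT HFD) and 104810105 (HH HFD) UMIs.

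Cells needed 3000 to 50000 UMIs, 2000 to 5000 genes and, with the limit, under 10% mitochondrial UMIs. Scrublet (in scanpy 1.11.5, expected rate 0.8% per 1000 cells) marked 37, 41, 10 and 6 doublets, so it removed almost none in the HFD libraries. Doublet calling and clustering (3000 variable genes, 30 components, 20 neighbours, Leiden resolution 1, seed 1, igraph 0.11.9) left out all mitochondrially encoded genes. A cluster took the class with the largest share of its markers met, when at least 3 markers, each in 10% of its cells, reached at least 0.25 of the highest mean of any cluster, unless markers of another class outnumbered its own among its 10 leading genes. Also left unnamed were clusters with tied classes, and clusters with few UMIs per cell for their library and no own marker among those 10 genes. Since names were rebuilt without the authors' annotation, they may differ from the study's.

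UMIs were summed per class and library and scaled to CPM. Genes that averaged at least 50 CPM entered counts of genes past 0.25 on the log2 scale with Poisson intervals apart. Only the ratios, their intervals and the counting rule were tested on simulated data, which held Poisson counting error alone. Filtering, doublet calling, clustering and naming were not. Positions and sequences came from GENCODE M21 and near-identical transcripts from BLAST 2.17.0. The named genes were the 10 members, the other 3 mitochondrial protein genes, the highest and lowest of each nuclear list, and the 5 most alike genes. Lrpprc, hormone genes, Gc, Ttr and some genes from a list of signs of RNA quality or handling were named as well. The members, lists and classes were chosen with earlier results of these data known. Alternatives were another limit, looser bounds, doublets kept, Leiden resolution 2, clustering under the limit only, no hormone genes in the denominator, equal weight for each cell, and other thresholds. With 1 library per group, no test was made. Python 3.11.15, numpy 2.4.6, scipy 1.17.1 and pandas 2.3.3 were used.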

Additional observations from a re-analysis of the deposited data

Results flagged for a closer look

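In alpha-like cells, 5 values went in opposite directions on the 2 diets, each with a counting interval clear of 0, and whether the diets differ in this was not tested. The log2 ratio of HH over WT of the summed members was -0.036 on SCD and 0.028 on HFD. For mt-Nd3 it was -0.10 and 0.16, for mt-Co2 -0.020 and 0.072, for mt-Co3 -0.034 and 0.025, and for mt-Atp6 -0.052 and 0.030. For the summed members the opposite directions were gone without the limit (-0.0016 on HFD), with equal weight for each cell (-0.0096 on HFD) and at a limit of 5% (0.036 on SCD). With 1 library per group, these sizes have no replicate check. In beta-like cells no member went in opposite directions on the 2 diets.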

How the results depend on the processing

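No paired analysis was possible because each group has 1 library. With the limit at 10%, the log2 ratio of HH over WT of the summed members was -0.06 on SCD and -0.30 on HFD in beta-like cells and -0.04 and 0.03 in alpha-like cells, 0 and 8 members were past the threshold in beta-like cells, and alpha-like cells exceeded beta-like cells in 3 libraries. Both beta-like ratios stayed below 0 under every alternative run, but their size moved. Without the limit the 4 ratios were -0.13, -0.45, -0.085 and -0.0016, the last with its sign turned, and alpha-like cells were higher in 1 library. At a limit of 5% they were -0.037, -0.10, 0.036 (turned) and 0.091, with 0 members past the threshold on HFD, where 16.0% of all genes were lower. At 20% the first 3 were -0.12, -0.41 and -0.064, with 1 library. With at least 1000 UMIs and 500 genes and no upper bounds, the HFD ratios were -0.24 and 0.041, with 3 members (14.9% of all genes). With doublets kept, the beta-like ratios were -0.052 and -0.29. At Leiden resolution 2 they were -0.064 and -0.19, with 0 members (6.21%), and clusters then left unnamed included one of 1035 cells, of which 1016 were HH HFD. Without hormone genes they were -0.0072 and -0.25, with 4 members (12.5%), 0.017 in alpha-like cells on HFD and 0 libraries. With equal weight for each cell they were -0.058 and -0.28, and -0.0096 (turned) in alpha-like cells on HFD. In that setting, at Leiden resolution 2 and with clustering under the limit only, alpha-like cells exceeded beta-like cells in 2 libraries. At a threshold of 0.5, 0 members passed on HFD (3.13%). Of 2 alternatives chosen after seeing the data, the looser bounds without a limit gave -0.11, -0.26, -0.080 and 0.046, with 5 members (14.6%) and 1 library, and removing the highest doublet scores gave -0.057 on SCD in beta-like cells. The cause of these moves was not tested. Whether WT and HH differ beyond the spread between animals cannot be known from 1 library per group. Counting error weighs most on mt-Nd6 and mt-Atp8, which had the fewest UMIs of the mitochondrial protein genes.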

Other observations

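When barcodes with at least 1000 UMIs and 500 genes were clustered without a mitochondrial limit, the clusters left unnamed included 3 rich in mitochondrial UMIs. The best class by markers was beta, beta and alpha, with 8, 9 and 8 markers met. They stayed unnamed because no own marker was among their 10 leading genes and their UMIs were few, at medians of 0.24, 0.30 and 0.20 of the library median. The first held 747 cells with a median mitochondrial share of 36.8%, of which 491 were WT SCD, 244 HH SCD, 6 WT HFD and 6 HH HFD. The second held 1217 cells with a median of 35.03%, of which 46, 16, 828 and 327 came from these libraries in the same order. The third held 423 cells with a median of 18.0%. All mitochondrially encoded genes were left out of this clustering.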
